A study of Mus musculus with 2 samples.

Results

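The genes described here encode the subunits of the proteasome, measured in the hearts of calorically restricted (CR) and freely fed (ad libitum, AL) mice with and without the deacetylase Sirt1 in their cardiomyocytes. They were taken by symbol, as every Psma, Psmb, Psmc or Psmd gene with a number after those letters, without the immunoproteasome genes Psmb8, Psmb9 and Psmb10. The rule found 34 of 16390 genes with a symbol on the array, each with 1 probe, and all 34 were detected in all 4 hearts, as were 11698 genes in all. Of the 34, 30 are stable subunits of the particle. The other 4 are Psmd5, Psmd9 and Psmd10, chaperones that assemble the base of the particle and leave it afterwards, and Psmc3ip, a cofactor of meiotic recombination that shares only the letters of its symbol. No probe was listed under Psma5, Psmb3 or Psmb11, which were not analysed here.

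The 4 conditions were measured in 1 heart each: the CR heart with cardiomyocyte-specific Sirt1 knockout, the AL heart with that knockout, the CR control heart and the AL control heart. All came from male mice on the C57BL/6J background, 6 months old, that had been fed freely or restricted by 40% over 3 months, and the labels do not name the Cre driver of the knockout. The knockout pair shared an array and the control pair the other, with CR in Cy3 and AL in Cy5 on both. Diet and dye, and genotype and array, thus cannot be told apart. No value has a replicate and no residual degree of freedom is left for a test, so every difference describes these hearts only and has no p-value.

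The proteasome degrades proteins that carry ubiquitin chains. Its core is a stack of alpha and beta rings with the protease sites inside. The regulatory particle that caps the core has a base, whose ATPases unfold the substrate and thread it into the core, and a lid, which removes the ubiquitin. In heart muscle this route turns over sarcomeric and damaged proteins, and several muscle ubiquitin ligases feed it during fasting and wasting. Many subunit genes are known targets of Nfe2l1, a transcription factor that acts through antioxidant response elements when proteasome activity is short.

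Promoter sequence is shown for the members whose window held the core of that element, because that element is the known route of Nfe2l1 to subunit genes. In RefSeq (GRCm38.p6) 27 of the 34 genes had a promoter entry, and the 250 bases before the start of each were searched on both strands for TGACNNNGC. It was found in 5 of 27 (18.5%), against 3112 of 27025 genes with a promoter entry (11.5%). The other motif searched, CCAAT, the box bound by NF-Y, was found in 11 of 27 (40.7%), against 37.5% of genes with an entry, and in none of the 5 sequences shown. A match describes these letters only. The windows are chr14:54617996-54618245 on the minus strand for Psmb5, chr11:70525107-70525356 on the plus strand for Psmb6, chr14:45329574-45329823 on the plus strand for Psmc6, chr11:107479278-107479527 on the plus strand for Psmd12 and chr5:123227940-123228189 on the plus strand for Psmd9. Each is written 5′ to 3′ on the strand of its gene with the match in capitals, which in Psmc6 and Psmd12 reads as its reverse complement.
Psmb5: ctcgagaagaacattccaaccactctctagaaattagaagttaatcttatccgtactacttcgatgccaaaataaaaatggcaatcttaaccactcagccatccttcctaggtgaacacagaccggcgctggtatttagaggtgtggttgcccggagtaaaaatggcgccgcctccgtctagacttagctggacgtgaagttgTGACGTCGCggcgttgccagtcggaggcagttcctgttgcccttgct
Psmb6: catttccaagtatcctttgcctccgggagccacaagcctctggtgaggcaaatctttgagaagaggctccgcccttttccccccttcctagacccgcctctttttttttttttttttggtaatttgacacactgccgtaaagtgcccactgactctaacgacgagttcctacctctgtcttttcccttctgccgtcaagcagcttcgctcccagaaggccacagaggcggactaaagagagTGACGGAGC
Psmc6: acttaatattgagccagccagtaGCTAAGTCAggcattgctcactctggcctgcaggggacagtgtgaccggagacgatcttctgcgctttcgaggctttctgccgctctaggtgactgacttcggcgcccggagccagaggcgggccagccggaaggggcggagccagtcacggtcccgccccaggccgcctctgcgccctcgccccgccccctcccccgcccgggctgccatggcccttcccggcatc
Psmd12: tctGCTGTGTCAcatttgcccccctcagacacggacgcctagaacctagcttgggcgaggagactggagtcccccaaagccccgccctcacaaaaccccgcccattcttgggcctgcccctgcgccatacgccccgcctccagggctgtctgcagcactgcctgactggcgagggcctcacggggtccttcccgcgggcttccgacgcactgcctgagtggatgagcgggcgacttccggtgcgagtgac
Psmd9: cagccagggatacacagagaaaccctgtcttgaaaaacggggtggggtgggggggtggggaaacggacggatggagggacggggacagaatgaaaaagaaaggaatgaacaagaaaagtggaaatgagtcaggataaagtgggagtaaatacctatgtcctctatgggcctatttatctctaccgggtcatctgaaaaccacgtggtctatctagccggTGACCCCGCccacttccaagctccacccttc
Of these 5 genes, Psmc6 and Psmd12 had the highest CR over AL values of the 34 in the control hearts, at 0.55 and 0.48, Psmb6 had 0.19, and Psmb5 and Psmd9 were below 0, at -0.10 and -0.08 (log2). With the local background subtracted, Psmc6 had 0.53, Psmd12 0.13, Psmb6 0.49, Psmb5 -0.04 and Psmd9 -0.16. Psmd12 was then no longer among the highest.

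The arrays gave usable signal for most of the genome: 74.0% of probes were above the blank spots in the knockout CR heart, 77.6% in the knockout AL heart, 77.8% in the control CR heart and 80.7% in the control AL heart. Sirt1 itself read 7.51 in the knockout CR heart and 7.07 in the knockout AL heart, against 7.53 in the control CR heart and 7.11 in the control AL heart (normalized log2 signal). The knockout hearts were thus within 0.04 of the control hearts, and where the probe lies relative to the deleted part is not known. Proteasome genes were bright: 29 of the 34 were among the 2340 brightest of the 11698 detected genes and none was near the scanner limit of 65535, the highest spot reading 4478. The signal around the spots was high, however, with a median of 61.3% of the spot's own signal for the 34 genes in the knockout CR heart, 54.5% in the knockout AL heart, 53.5% in the control CR heart and 51.9% in the control AL heart. Spots of 24 per positive control gave log2 CR over AL ratios with an SD of up to 0.088 on the knockout array and 0.058 on the control array, which is spot noise and not the spread between mice. Between the arrays these spots varied more, with an SD for knockout over control of up to 0.155 under CR and 0.176 under AL. In bulk heart RNA, fewer cells of a type and less RNA per cell cannot be told apart.

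**Figure D1:**
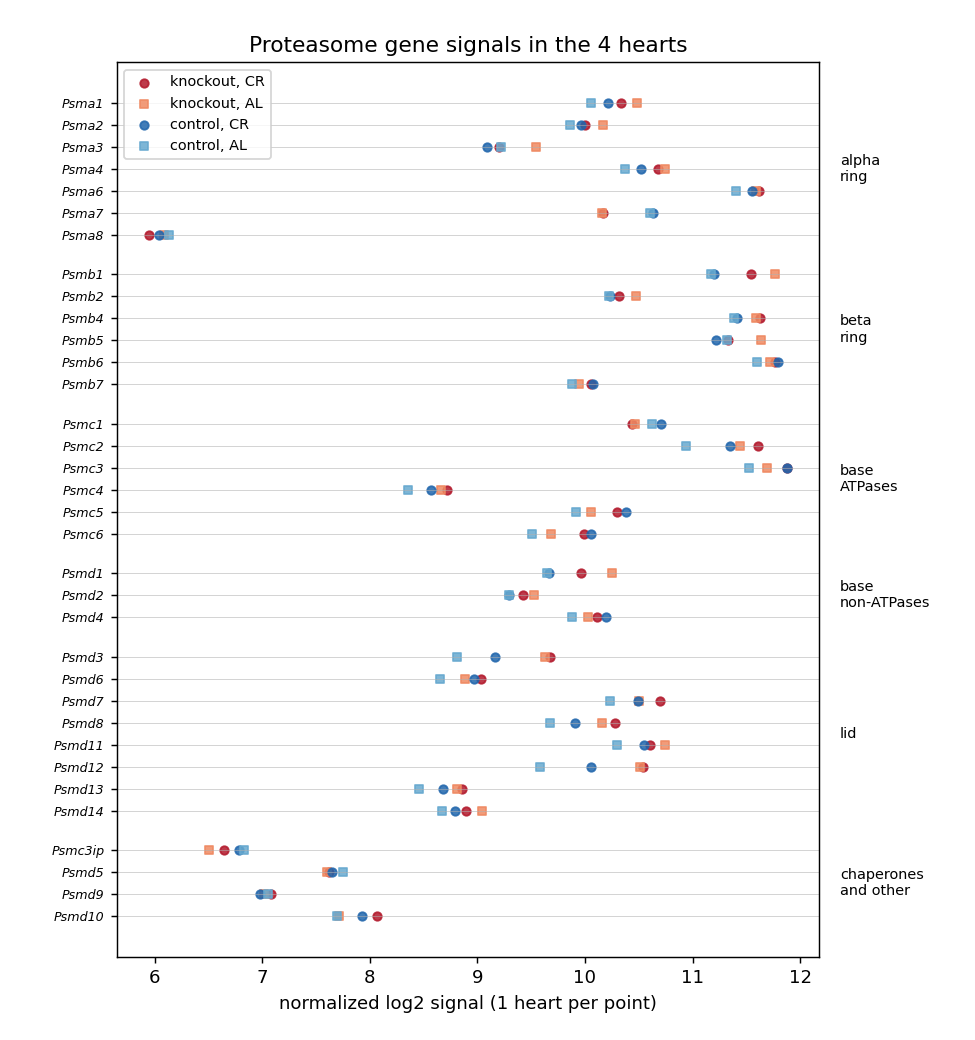
Normalized log2 signal of each of the 34 genes, with 1 point per heart and genes grouped by sub-complex. Without subtraction of the local background, the control AL heart is the lowest of the 4 for 25 of the 34 genes.

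Without subtraction of the local background, most of the subunits had a common low point across the 4 hearts, the freely fed control heart. It gave the lowest signal of the 4 for 25 of the 34 genes (73.5%) and for 24 of the 30 stable subunits, whereas it was lowest for 29.1% of the 11698 genes. The highest signal came from the knockout CR heart for 13 genes, the knockout AL heart for 11, the control CR heart for 7 and the control AL heart for 3. As shares these were 38.2%, 32.4%, 20.6% and 8.82%, against 27.6%, 24.5%, 21.7% and 26.2% of all genes in the same order of hearts, so the control AL heart differed most from the share of all genes. This order was not counted with the local background subtracted. Under AL, 20 of the 34 genes then read higher in the knockout than in the control heart, in place of 28. With median centring that number was 21. Without subtraction the differences were small. Between CR and AL, 0 of the 34 genes were 1.5-fold higher or lower in knockout hearts, against 0.786% of all genes each way, and 0 of 34 in control hearts, against 0.880% higher and 0.368% lower.

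In the control hearts, most proteasome genes read higher under CR than under AL, with the highest medians in the ATPases of the base and the lid. The median of the 34 genes was 0.15 (log2 CR over AL), against 0.0021 over all genes and 0.02 over the 2340 brightest genes, and 27 of the 34 were above 0, as were 50.6% of all genes. At least 1.2-fold higher were 8 of 34, against 8.01% of all genes, and 0 were 1.2-fold lower, against 5.28%. By sub-complex the median was 0.38 for the 6 base ATPases (6 of 6 above 0), 0.25 for the 8 lid subunits (8 of 8), 0.10 for the 7 alpha subunits (5 of 7), 0.03 for the 6 beta subunits (5 of 6), 0.02 for the 3 scaffold and receptor subunits of the base (2 of 3) and -0.07 for the 4 others, the chaperones and Psmc3ip (1 of 4). This order depended on the local background: with it subtracted the median was 0.49 for the scaffold and receptor subunits (3 of 3), 0.30 for the ATPases (6 of 6), 0.20 for the beta ring (5 of 6), 0.07 for the lid (5 of 8) and 0.01 for the alpha ring (4 of 7).

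Psmc6, an ATPase of the base, read 9.99 and 9.69 in the knockout CR and AL hearts, against 10.06 and 9.50 in the control CR and AL hearts. Its log2 CR over AL in control hearts, 0.55 or 1.47-fold, was the highest of the 34. Both AL hearts lay below both CR hearts, an order that was not counted over all genes. Psmd12, a scaffold subunit of the lid, read 10.54 and 10.52 in the knockout CR and AL hearts, against 10.06 and 9.58 in the control CR and AL hearts. Its control ratio was 0.48, and the control AL heart stood lowest. Psmc5, another ATPase, read 10.38 in the control CR heart and 9.91 in the control AL heart, a ratio of 0.46. At the other end stood Psma3, a subunit of the outer ring of the core, with 9.09 in the control CR heart and 9.22 in the control AL heart, a ratio of -0.13. The chaperone Psmd5 read 7.65 in the control CR heart and 7.75 in the control AL heart, a ratio of -0.10, and Psmb5 had the same ratio to the second decimal. These 3 low values were no larger than 1.09-fold. With the local background subtracted, Psmc6 stayed the highest in control hearts at 0.53, next to Psmc3 at 0.52. Psmd12 then had 0.13 and Psmc5 0.20. Psma3 had 0.01, Psmd5 -0.02 and Psmb5 -0.04, and the lowest was Psma4 at -1.92.

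The 3 catalytic subunits of the beta ring did not move as one. Psmb5, the chymotrypsin-like site, read 11.33 in the knockout CR heart and 11.64 in the knockout AL heart, against 11.22 in the control CR heart and 11.32 in the control AL heart. It was thus lower under CR on both arrays, with log2 CR over AL of -0.31 in knockout hearts and -0.10 in control hearts. Psmb6, the caspase-like site, read 11.77 and 11.72 in the knockout CR and AL hearts and 11.79 and 11.60 in the control CR and AL hearts, ratios of 0.05 in knockout hearts and 0.19 in control hearts. Psmb7, the trypsin-like site, read 10.06 and 9.94 in the knockout CR and AL hearts and 10.08 and 9.88 in the control CR and AL hearts, ratios of 0.12 in knockout hearts and 0.19 in control hearts. Both of these were higher under CR on both arrays, opposite to Psmb5. With the local background subtracted, Psmb5 stayed below 0 on both arrays (-0.23 and -0.04) and Psmb7 above (0.13 and 0.34), while Psmb6 had -0.08 on the knockout array and 0.49 on the control array.

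**Figure D2:**
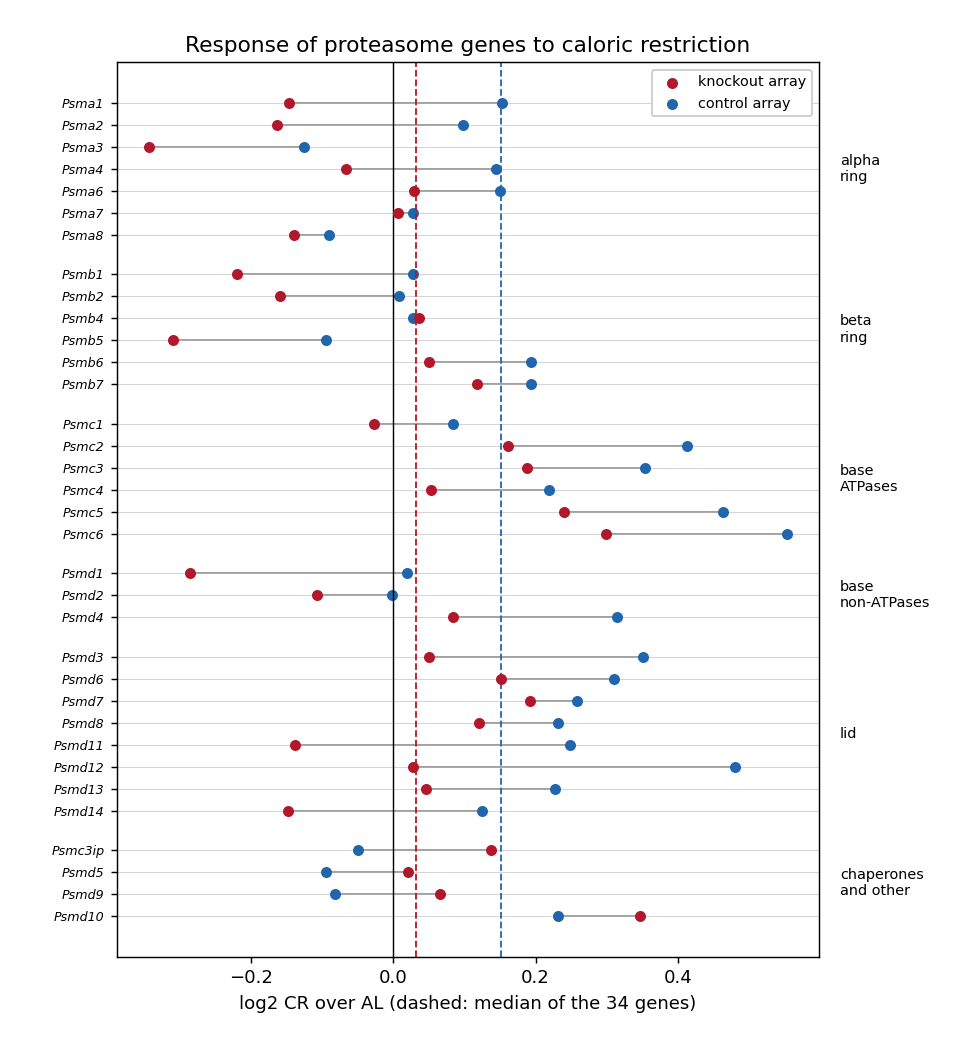
Log2 CR over AL of each gene in the knockout pair and the control pair, joined by a line, with genes grouped by sub-complex and dashed lines at the medians of the 34 genes, 0.03 and 0.15. The knockout point lies left of the control point for 29 of the 34 genes, and the base ATPases reach furthest to the right among the stable subunits.

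In the knockout hearts the subunits split by sub-complex around 0. The median of the 34 was 0.03, against -0.0024 over all genes, and 21 of 34 were above 0, as were 49.3% of all genes. At least 1.2-fold higher were 2 genes, against 6.64% of all genes, and at least 1.2-fold lower were 3, against 6.39%. The base ATPases had a median of 0.17 (5 of 6 above 0) and the lid 0.05 (6 of 8), whereas the alpha ring had -0.14 (2 of 7), the beta ring -0.06 (3 of 6) and the other base subunits -0.11 (1 of 3). Among the groups of stable subunits, the base ATPases had the highest median and the lid the next, as they did in the control hearts. After subtraction of the local background the ATPases (0.16) and the lid (0.10) kept these places on the knockout array, though not on the control array.

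Psmd10, the assembly chaperone also known as gankyrin, read 8.06 in the knockout CR heart and 7.72 in the knockout AL heart, against 7.93 and 7.70 in the control CR and AL hearts. Its log2 ratio of 0.35 was the highest of the 34 in knockout hearts, with Psmc6 at 0.30 and Psmc5, which read 10.30 and 10.06 in the knockout CR and AL hearts, at 0.24. The lowest was Psma3, with 9.20 in the knockout CR heart and 9.54 in the knockout AL heart, a ratio of -0.34. Psmb5 followed at -0.31. Psmd1, the large scaffold of the base, read 9.96 in the knockout CR heart and 10.25 in the knockout AL heart, a ratio of -0.29, against 9.67 and 9.65 in the control CR and AL hearts. For Psma3, Psmb5 and Psmd1 the knockout AL heart was the highest of the 4. With the local background subtracted, Psmd10 had 0.11, Psmc6 0.20, Psma3 -0.007 and Psmb5 -0.23. Psmc5 was then the highest of the 34 in knockout hearts, at 1.34, and Psmd1 the lowest, at -0.77. The knockout AL heart then no longer lay above the control AL heart for Psma3 (-0.01, log2 knockout over control) and Psmd1 (-0.02).

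The knockout pair gave the lower CR over AL value for nearly every stable subunit. Taken as knockout minus control, the difference of the responses had a median of -0.17 over the 34 genes, against -0.003 over all genes and -0.02 over the 2340 brightest genes, and 29 of 34 were below 0, as were 51.0% of all genes. Of the 30 stable subunits only Psmb4 was above 0, at 0.01, whereas the 3 chaperones and Psmc3ip were all above 0. At least 1.2-fold lower were 6 of 34 genes, against 6.19% of all genes, and 0 were 1.2-fold higher, against 3.84%. Beyond 1.5-fold there were 0 of 34 in either direction, against 0.376% higher and 0.513% lower of all genes. The medians were -0.23 for the lid, -0.23 for the scaffold and receptor subunits of the base, -0.21 for the alpha ring, -0.19 for the base ATPases and -0.16 for the beta ring, and 0.13 for the chaperones and Psmc3ip. Subtracting the local background gave -0.06 for the lid, -1.18 for the scaffold and receptor subunits, -0.02 for the alpha ring, -0.28 for the base ATPases, -0.34 for the beta ring and 0.04 for the chaperones and Psmc3ip. Higher under CR on both arrays were 18 of 34 genes (52.9%, against 33.5% of all genes). Lower with CR in knockout hearts but higher in control hearts were 9 (26.5%, against 17.1%).

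Psmd12 had the largest gap, -0.45, followed by Psmd11 at -0.39 and Psmd1 at -0.31. Psmd11, a lid subunit that holds the lid to the core, read 10.61 in the knockout CR heart and 10.75 in the knockout AL heart, against 10.54 in the control CR heart and 10.30 in the control AL heart. In both Psmd11 and Psmd12 the control AL heart was the lowest of the 4. The highest 3 were none of them stable subunits: Psmc3ip at 0.19, Psmd9 at 0.15 and Psmd5 at 0.12. Psmd9 read 7.08 and 7.01 in the knockout CR and AL hearts and 6.98 and 7.06 in the control CR and AL hearts, a span near the spot noise. Psmc3ip read 6.64 and 6.51 in the knockout CR and AL hearts and 6.78 and 6.83 in the control CR and AL hearts, and Psmd5 read 7.62 and 7.60 in the knockout CR and AL hearts. With the local background subtracted the difference was -0.12 for Psmd12, -0.27 for Psmd11, -1.26 for Psmd1 and -0.08 for Psmc3ip, and 10 of the 34 genes were above 0 in place of 5.

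**Figure D3:**
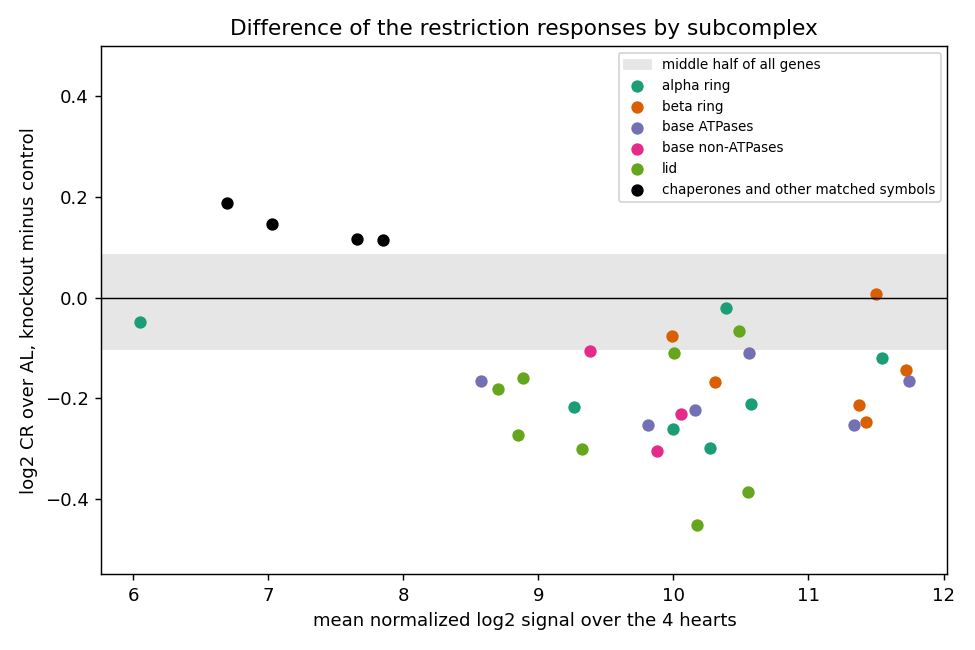
Log2 CR over AL of the knockout pair minus that of the control pair, plotted against the mean log2 signal over the 4 hearts, with 1 point per proteasome gene coloured by sub-complex and a grey band from -0.10 to 0.08 that holds the middle of all 11698 genes between their quartiles. All stable subunits but Psmb4 lie below 0, most of them under the band, while the chaperones and Psmc3ip lie at lower signal above it.

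In the authors' deposited table the control median of the 34 genes was 0.045 and the median difference of the responses -0.067, while the 2340 brightest genes had medians of -0.072 and 0.078. The cause of this shift from the values above was not tested. Markers of heart muscle were mixed. The 10 cardiomyocyte genes detected had a median difference of -0.16, with 8 of 10 below 0, as were 51.0% of all genes. Their CR over AL median was 0.06 in knockout hearts and 0.21 in control hearts, or -0.07 and 0.23 with the local background subtracted. Above 0 were 6 of 10 in knockout hearts and 7 of 10 in control hearts, against 49.3% and 50.6% of all genes. Myl2 (-0.69 and -0.62) and Myl3 (-0.77 and -0.67) were lower under CR in both pairs. Myh6 (0.27 and 1.30) and Mybpc3 (0.54 and 0.80) were higher under CR in both pairs. The summed linear signal of the 10 genes was 196008 and 216039 in the knockout CR and AL hearts, against 193226 and 192752 in the control CR and AL hearts. The difference was also below 0 for 6 of 8 fibroblast genes (median -0.29), 8 of 8 endothelial genes (-0.13), 5 of 6 smooth muscle and pericyte genes (-0.13) and 8 of 11 macrophage and leukocyte genes (-0.17). It was below 0 for 2 of 3 atrial genes (-0.11) and for 1 of 2 adipocyte genes (median 0.14). The atrial gene above 0 was Nppa, which encodes the atrial natriuretic peptide, at 0.96. With the local background subtracted Nppa had -0.38. Apart from the adipocyte list, the medians of these lists thus lay below 0 like that of the proteasome genes, and their part in the proteasome values was not tested. Of the markers, Sln, Cd3e, Adipoq and Retn were not detected in all 4 hearts, and Actc1, Hbb-bt, Hbb-bs and Hba-a1 had no probe listed.

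Between genotypes, most subunits read higher in the knockout heart, and by more under free feeding than under restriction. Because the CR and AL values of each pair share an array, the 2 genotype comparisons and the difference above are made of the same 4 readings. Under CR the median of the 34 genes was 0.10 (log2 knockout over control), against 0.0029 over all genes, with 24 of 34 above 0, as were 50.7% of all genes. Under AL it was 0.24, against 0.01 over all genes, with 28 of 34 above 0, as were 52.4%. At least 1.2-fold higher were 5 genes under CR, against 8.96% of all genes, and 16 under AL, against 12.2%, and at least 1.2-fold lower were 2 under CR, against 9.19%, and 2 under AL, against 10.2%. At least 1.5-fold higher were 0 under CR, against 1.47%, and 4 under AL, against 2.83%, and at least 1.5-fold lower were 0 under CR, against 1.09%, and 0 under AL, against 1.93%. With the local background subtracted the number above 0 was 18 of 34 under CR and 20 of 34 under AL. With median centring in place of loess the number above 0 was 11 of 34 under CR and 21 of 34 under AL. The medians were then -0.062 under CR and 0.071 under AL, while the 2340 brightest genes sat at -0.15 and -0.11. Markers moved with genotype too: the 3 atrial genes detected had log2 knockout over control medians of -2.71 under CR and -2.47 under AL, with 1 of 3 above 0 and a summed linear signal of 4971 and 2621 in the knockout CR and AL hearts, against 3254 and 3159 in the control CR and AL hearts. Myl7 had -4.06 under CR and -3.95 under AL and Myl4 had -2.71 and -2.47, while Nppa had 1.95 and 0.99. Above 0 were 6 of 10 cardiomyocyte genes under CR and 7 of 10 under AL, 6 of 8 fibroblast genes under each diet and 9 of 11 macrophage and leukocyte genes under each diet. Endothelial genes lay the other way, with 1 of 8 above 0 under CR (median -0.12) and 3 of 8 under AL (median -0.02), and of the smooth muscle and pericyte genes 4 of 6 were above 0 under CR and 5 of 6 under AL. Their part in the genotype values was not tested.

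**Figure D4:**
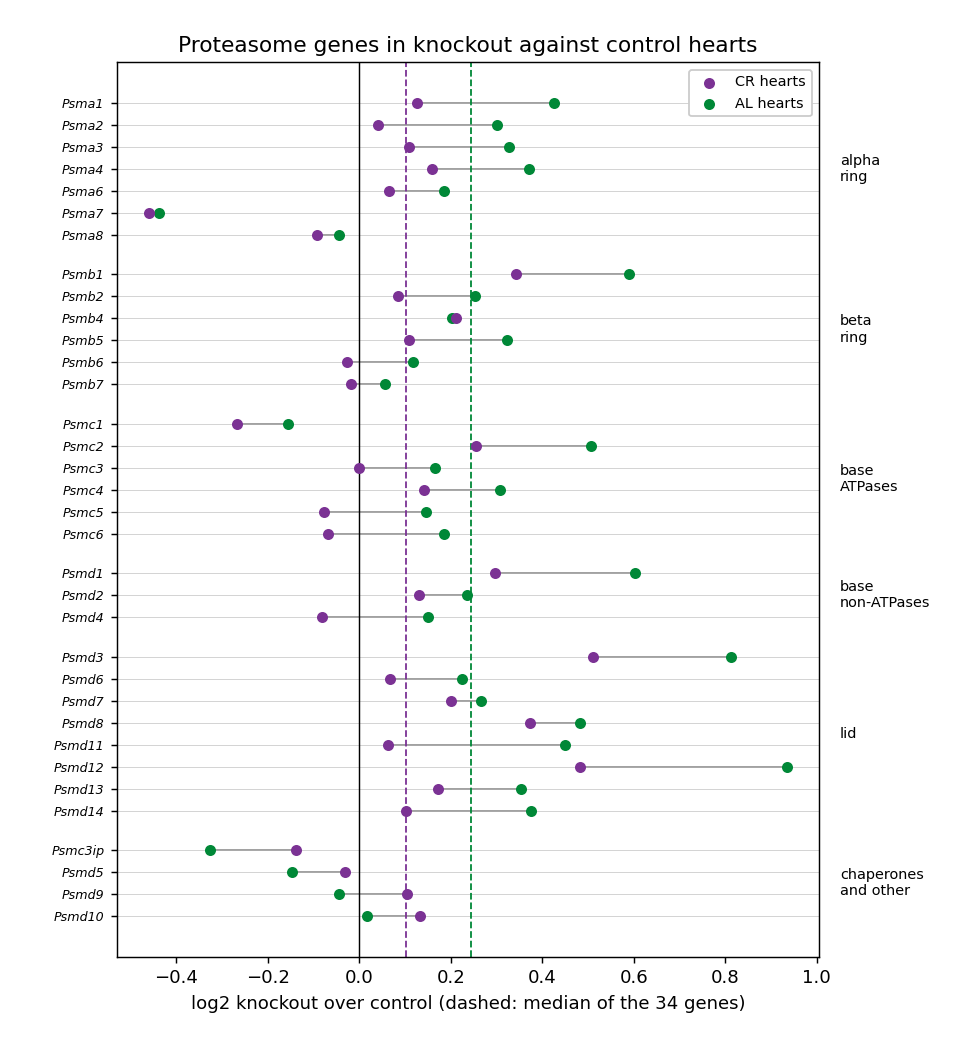
Log2 knockout over control of each gene in the CR hearts and the AL hearts, joined by a line, with genes grouped by sub-complex and dashed lines at the medians of the 34 genes, 0.10 and 0.24. All 8 lid subunits lie right of 0 under both diets, and Psma7 and Psmc1 lie left of 0 under both, as do Psma8, Psmc3ip and Psmd5.

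The lid was higher in the knockout heart in all 8 subunits under both diets, with a median of 0.19 under CR and 0.41 under AL. In all genes, 38.5% were higher in the knockout heart under both diets. The count of 8 was 7 under each diet with the local background subtracted, where Psmd14 had -0.05 under CR and -0.43 under AL, and with median centring it was 5 under CR and 8 under AL. Psmd12 had the highest log2 knockout over control value under AL, 0.94 or 1.91-fold, and 0.48 under CR. Psmd3, another scaffold subunit of the lid, read 9.68 and 9.63 in the knockout CR and AL hearts and 9.17 and 8.81 in the control CR and AL hearts, so that both knockout hearts lay above both control hearts. Its ratios were 0.51 under CR and 0.81 under AL. Psmd8, also of the lid, read 10.28 and 10.16 in the knockout CR and AL hearts and 9.91 and 9.68 in the control CR and AL hearts, ratios of 0.37 and 0.48. Psmd1 had log2 knockout over control values of 0.30 under CR and 0.60 under AL. For Psmd3, Psmd8, Psmd12 and Psmd1, both knockout hearts lay above both control hearts. How many of all genes were separated in this way was not counted, and genotype and array cannot be told apart.

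Without subtraction of the local background, Psma7 and Psmc1 stood apart from the other stable subunits in reading lower in the knockout hearts, each beyond 0.15 under both diets. Psma7, a subunit of the alpha ring, read 10.17 and 10.16 in the knockout CR and AL hearts and 10.63 and 10.60 in the control CR and AL hearts, ratios of -0.46 and -0.44, with little change with diet. Psmc1, an ATPase of the base, read 10.44 and 10.47 in the knockout CR and AL hearts and 10.71 and 10.62 in the control CR and AL hearts, ratios of -0.27 and -0.16. The AL value was within the SD of positive control spots for that comparison, 0.176. Psmc3ip had log2 knockout over control values of -0.14 under CR and -0.33 under AL. With the local background subtracted, the log2 knockout over control value of Psma7 was -1.30 under CR and -1.07 under AL, of Psmc1 -1.62 and -1.22, of Psmd3 0.26 and 0.45, of Psmd8 0.59 and 0.60 and of Psmd12 2.04 and 2.17. That of Psmd1 was -1.27 under CR and -0.02 under AL, so its direction turned with that choice, as did that of 10 of 34 genes under CR and 14 of 34 under AL. Psma7 and Psmc1 then no longer stood apart. Psmc5 had -1.52 under CR and -2.66 under AL, Psmd4 -2.46 and -1.28 and Psma1 -0.73 and -0.34. The median of the 6 base ATPases was -1.07 under CR and -0.75 under AL, with 2 of 6 above 0 under each diet. Of the 34 genes, 18 were above 0 under CR and 20 under AL.

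The remaining subunits are given by sub-complex as log2 CR over AL without subtraction of the local background. In the alpha ring, Psma1, Psma2 and Psma4 were lower under CR on the knockout array (-0.15, -0.16 and -0.07) and higher on the control array (0.15, 0.10 and 0.14), and Psma6 was higher on both (0.03 and 0.15). Psma8, the form of the alpha ring made in testis, was the only member under the median signal of all genes and read between 5.95 and 6.13 in the 4 hearts. In the beta ring, Psmb1, Psmb2 and Psmb4 carry no protease site. Psmb1 and Psmb2 had log2 CR over AL values of -0.22 and -0.16 on the knockout array and 0.03 and 0.01 on the control array, while Psmb4 had 0.04 and 0.03. In the base, Psmc2, Psmc3 and Psmc4 were higher under CR on both arrays, by 0.16, 0.19 and 0.05 in knockout hearts and by 0.41, 0.35 and 0.22 in control hearts. Psmd4, a ubiquitin receptor, did the same with 0.08 and 0.32, and Psmd2, the other large scaffold of the base, had -0.11 in knockout hearts and -0.0021 in control hearts. In the lid, Psmd6, Psmd7 and Psmd13 were higher under CR on both arrays, by 0.15, 0.19 and 0.05 in knockout hearts and by 0.31, 0.26 and 0.23 in control hearts. Psmd14, the deubiquitinase that frees the substrate of its chain, had -0.15 in knockout hearts and 0.13 in control hearts. With the local background subtracted, Psmc2, Psmc3, Psmc4 and Psmd6 stayed above 0 on both arrays. Psma6 then had -0.16 in knockout hearts and -0.28 in control hearts, Psmd4 -0.65 and 0.52, Psmd7 0.15 and -0.35 and Psmd13 -0.13 and -0.64. Psma4 turned to 0.90 and -1.92. Of the 34 genes, subtraction turned the sign in 10 on the knockout array and 8 on the control array.

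How clear the spots stood of their surroundings differed among the subunits. For Psmc2 the surroundings read 108% of the spot in the knockout CR heart and 109% in the knockout AL heart, so its value after subtraction carries little signal. In 11 of the 34 genes the spot was at least 1.5 times its surroundings in all 4 hearts: Psma3, Psma7, Psmb1, Psmb4, Psmb7, Psmc3, Psmc4, Psmc6, Psmd3, Psmd6 and Psmd8. Over these 11 the median difference of the responses was -0.165 without subtraction and -0.225 with it, and 1 and 0 of the 11 were above 0. All 879 of the 11698 genes that met this bar had a median difference of -0.03 without subtraction, with 43.8% above 0, and -0.08 with it, with 38.7% above 0. The median knockout over control value of the 11 was 0.11 under CR and 0.23 under AL without subtraction, against -0.04 and -0.01 for the 879. With subtraction it was 0.23 under CR and 0.46 under AL, against 0.04 and 0.11. Above 0 were then 7 of the 11 under CR and 8 under AL, against 53.6% and 58.9% of the 879. The medians of the 11 thus had the direction of the whole set under both treatments of the background, and those of the 879 lay the same way in the difference of the responses. The 11 are part of the 34 and have the same values without subtraction, so they are no separate support.

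**Figure D5:**
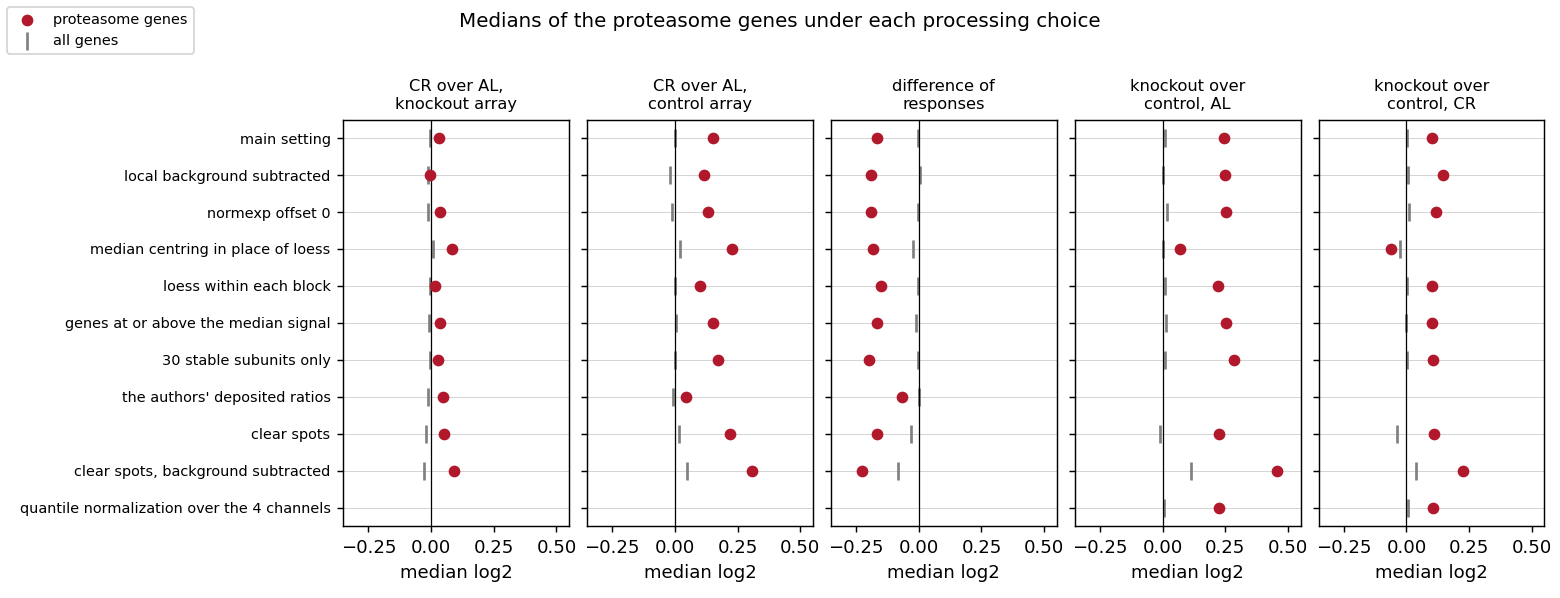
Median log2 value of the proteasome genes and of all genes measured under each processing choice, with a panel for each of the 5 comparisons. The median difference of the responses lies below 0 under every choice shown, while the knockout over control median under CR turns to -0.062 with median centring.

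The immunoproteasome subunits, which replace the 3 catalytic subunits in immune cells and under interferon, were lower under CR in all 3 genes of the knockout pair. Of all genes, 49.3% were above 0 in that pair. Psmb8 read 8.66 in the knockout CR heart and 9.17 in the knockout AL heart, against 8.44 and 8.42 in the control CR and AL hearts. The knockout AL heart stood alone, and the ratios were -0.51 in knockout hearts and 0.02 in control hearts, or -0.67 and -0.13 with the local background subtracted. Psmb9 read 7.35 and 7.71 in the knockout CR and AL hearts and 7.56 and 7.60 in the control CR and AL hearts, ratios of -0.35 and -0.05. With subtraction these were -0.16 and -0.27, so that its difference of the responses turned from -0.31 to 0.10. Psmb10 read 9.24 and 9.35 in the knockout CR and AL hearts and 9.17 and 9.13 in the control CR and AL hearts, ratios of -0.12 and 0.03, which turned to 0.30 and -0.34 with subtraction. Macrophage and leukocyte markers were lower under CR in 11 of 11 genes in knockout hearts (median -0.28) and 10 of 11 in control hearts (median -0.28). Of all genes, 49.3% and 50.6% were above 0. The summed linear signal of these markers was 1984 and 3206 in the knockout CR and AL hearts, against 1732 and 2293 in the control CR and AL hearts. Their part in the immunoproteasome values was not tested.

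Genes that build or feed the particle were read from lists chosen for the pathway. Of 9 assembly factors and small subunits detected, 3 had a difference of the responses above 0 and 6 below, with a median of -0.08. Psmg1, a chaperone of the core, had 0.15, while Usp14 and Adrm1, a deubiquitinase and a ubiquitin receptor on the particle, had -0.38 and -0.34. The 3 activators and inhibitors detected had a median of -0.07 and 0 of 3 above 0, where 51.0% of all genes were below, but with the local background subtracted the median was 0.22 and Psme1, Psme4 and Psmf1 were all above 0, at 0.21, 0.27 and 0.22. Of 10 genes for ubiquitin, its activation and its shuttles, 4 were above 0, with a median of -0.03. Among these Vcp, the segregase that extracts ubiquitinated proteins, read 10.52 and 10.81 in the knockout CR and AL hearts and 9.99 and 9.66 in the control CR and AL hearts, a difference of -0.61, which was -0.61 with the local background subtracted too. Both knockout hearts lay above both control hearts for Vcp, a separation that was not counted over all genes, and the control AL heart was again lowest.

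Of 7 genes chosen as transcription factors of this pathway or, as Ngly1, for their processing, 3 had a difference of the responses above 0 and 4 below. Their median was -0.06. Of all genes, 51.0% were below 0. Stat3 was lowest at -0.40, or -0.13 with the local background subtracted, when the median of the 7 was 0.29. Nfe2l1 read 9.19 and 9.23 in the knockout CR and AL hearts and 9.22 and 9.27 in the control CR and AL hearts, so that its CR over AL ratios of -0.04 and -0.05 were within the SD of the positive control spots. Subtraction of the local background moved them to 0.62 in knockout hearts and -0.19 in control hearts. Over the 7 genes the median CR over AL was 0.01 in knockout hearts and -0.0017 in control hearts. Muscle ubiquitin ligases were above 0 in 7 of 12 genes in knockout hearts (median 0.11) and 10 of 12 in control hearts (median 0.18), against 49.3% and 50.6% of all genes. With the local background subtracted these medians were 0.15 and 0.06. Fbxo32, the atrogin ligase induced in muscle wasting, had a log2 CR over AL of 0.87 in knockout hearts and 0.65 in control hearts. Asb2, a muscle ligase, had 0.60 and 0.65, and Trim63, a ligase of the sarcomere, 0.25 and 0.32. These 3 ligases were higher under CR on both arrays, and for Fbxo32 the knockout pair gave the larger value. The values of Fbxo32 were 0.58 in both pairs with the local background subtracted, so that this difference was lost.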

How the data were processed

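Heart RNA was hybridised in pairs to 2 arrays, 4 hearts in all. The values used are the median intensity per spot and wavelength in the deposited scanner files, named so per the file headers. Normalized log2 ratios (CR/AL) are the content of the authors' deposited table, per the labels. The scanner software is not given in the sources used here. Here intensities were corrected with normexp (offset 50) without the local background, by loess within each array and by Aquantile between arrays (limma 3.58.1, R 4.3.3), giving weight 0 to controls and scanner-marked spots. A spot counted as detected above the trimmed mean of 2736 blank spots plus 2 SD (5% left out at each end). Of 23473 probes, 16631 had 1 gene symbol and 6842 had none. Symbols were updated through RefSeq (GRCm38.p6): 12622 were current, 3947 were updated and 62 did not match. Levels are normalized log2 signals of a probe and are not set against those of other probes.

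With 1 heart per condition and no residual degree of freedom, genes were counted above and below 0 and beyond 1.2-fold and 1.5-fold, beside all 11698 genes detected. The number of arrays limits the precision. The scripts were tested on simulated data. The members and lists were chosen with earlier results of these data known. Values per heart are given for the 3 catalytic subunits and for the 3 highest and 3 lowest members in each of the 5 comparisons. Alternatives tried were subtraction of the local background, no offset, median centring, loess by block, no detection filter, bright genes only, probe means, the stable subunits alone, quantile normalization, the deposited ratios and, chosen after seeing the data, clear spots only.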

Additional observations from a re-analysis of the deposited data

Results flagged for a closer look

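In 4 stable subunits, CR over AL lay below 0 on the knockout array and above 0 on the control array, each by more than the SD of the positive control spots. The difference was not tested, since each condition is 1 heart. Without that bar, 9 of the 30 stable subunits had these opposite directions, against 17.1% of all genes. The share of all genes past the bar was not counted. For Psma1, of the alpha ring, the difference of the responses was -0.30, from -0.15 in the knockout pair and 0.15 in the control pair. Psma2, of the same ring, had a difference of -0.26, from -0.16 and 0.10. Psmd11, of the lid, had -0.39, from -0.14 and 0.25. Psmd14, the deubiquitinase of the lid, had -0.27, from -0.15 and 0.13. With the local background subtracted, the opposite directions remained in Psma1 (-0.21 in the knockout pair and 0.17 in the control pair) and in none of the other 3: Psma2 had 0.35 and 0.19, Psmd11 had -0.31 and -0.04, and Psmd14 had 0.40 and 0.02.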

How the results depend on the processing

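No paired analysis was possible because each genotype was measured on 1 array and each condition in 1 heart. Of the 55 medians recomputed for the 34 genes under the alternatives, 10 could not differ (no detection filter and probe means, since every gene was detected and had 1 probe). Of the other 45, 7 moved by more than the SD of single positive control spots, a yardstick that is wide for a median over 34 genes, so smaller shifts are no sign of stability. Among these 7 the sign turned in 1, knockout over control under CR, which was -0.062 with median centring in place of 0.10. The knockout CR over AL median, 0.03, was -0.0028 with the local background subtracted. The control CR over AL median of 0.15 was 0.23 with median centring, 0.045 in the authors' deposited table, 0.22 over clear spots and 0.31 over clear spots with the local background subtracted. The median difference of the responses, -0.17, was -0.067 in the authors' deposited table. The knockout over control median under AL, 0.24, was 0.46 over clear spots with the background subtracted. It was 0.071 with median centring, a shift under the SD of 0.176 for that comparison and so not among the 7. Counts moved further: 5 of 34 genes were above 0 in the difference of the responses, against 10 with the local background subtracted, 13 in the authors' deposited table and 1 of the 30 stable subunits. For knockout over control under CR, 24 of 34 were above 0, against 11 with median centring. Clear spots were chosen after seeing the data, and the cause of these shifts was not tested. The high brightness around the spots limits single genes more than medians: subtraction turned the sign of the difference in 9 of 34 genes.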

Other observations

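Among the ligases and factors named for the pathway, Vcp was higher in the knockout hearts by 0.54 under CR and 1.15 under AL (log2 knockout over control). These were above the values of all 34 proteasome genes, but not with the local background subtracted, when Vcp had 1.02 and 1.63 while Psmd12 had 2.04 and 2.17. Nfe2l2, the relative of Nfe2l1 that also binds antioxidant response elements, was higher by 0.34 under CR and 0.44 under AL, while Trim63 was lower, at -0.47 under CR and -0.39 under AL. With the local background subtracted Nfe2l2 had 1.07 and 0.78, and Trim63 turned direction, to 0.10 and 0.04. The knockout over control ratios of Asb2 were 0.52 under CR and 0.57 under AL. No replicate stands behind these values.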
